A study of Mus musculus with 4 samples.

Results

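The cells described here are the bone marrow cells that carried surrogate light chain transcripts, 885 of 26943 kept cells (3.28%). They were chosen by raw unique molecular identifier (UMI) counts: at least 3 UMIs of Igll1, Vpreb1 and Vpreb2 together, at most 1 UMI of Myl4, Fcrla and Cecr2, and at most 2 UMIs of Ms4a1, Bank1, Ighd and Fcer2a. The counted barcodes had at least 1000 gene UMIs, at most 10% mitochondrially encoded UMIs and exactly 1 hashtag with at least 200 counts. Levels of these 10 genes in the members follow from that choice and are given as descriptions without a test.

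All mice were wild type and bore tumour cells of the murine breast cancer line E0771, given 3 days ahead of the operation. One group then had sham surgery and the other had ligation of the femoral artery, the main supply of the hind limb, and marrow was collected on day 9. The labels describe a sort for lineage-negative, cKit-positive progenitors with or without Sca1, and give neither the age nor the sex of the mice. PIPseq, a droplet method without a microfluidic chip, was run on 2 libraries, each with 2 sham and 2 surgery replicates marked by hashtag oligonucleotides. The treatment label names one library as ligation and the other as sham, whereas the hashtag names place both groups in each library. Groups were taken from the hashtag names, and the libraries are called batch 1 and batch 2. Whether a hashtag replicate was 1 mouse or a pool is not given, so each p-value covers only the spread among these hashtag samples.

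The surrogate light chain stands in for the immunoglobulin light chain before light chain genes are rearranged. Igll1 encodes lambda 5, its constant-like part, and Vpreb1 and Vpreb2 encode its variable-like part. With a newly made mu heavy chain, encoded by Ighm, and the signalling chains Cd79a and Cd79b it forms the pre-B cell receptor, which drives a burst of division. Pro-B cells carry the recombinases Rag1 and Rag2 and the terminal transferase Dntt, which adds bases at heavy chain junctions. They depend on the transcription factors Ebf1 and Pax5 and, in mouse, on interleukin 7.

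The genes of the surrogate light chain lie on mouse chromosome 16. Igll1 (chr16:16860671-16863985, minus strand) and Vpreb1 (chr16:16868403-16870843, minus strand) are separated by 4418 bases in GENCODE on GRCm38, and Vpreb2 (chr16:17980428-17981273, plus strand) lies 1109585 bases further on. The bases ahead of their transcripts are shown because the rule rests on these 3 genes being transcribed together. Sequences are from RefSeq, GRCm38.p6, which held entries for all 3 genes, and run 5′ to 3′ on the strand of the gene. Capitals mark matches on either strand to CCCNNGGG, the core that EBF1 is known to bind, or to CAGCTG and CACCTG, E-box forms that E2A is known to bind. The Vpreb2 run stops where the GENCODE transcript starts. The Vpreb1 run ends at the start of its protein-coding transcript (base 16869255), and not at that of the gene span given above, which 2 GENCODE transcripts of the non-coding type processed transcript extend to base 16870843. Of the Vpreb1 run, 190 bases lie in an exon of one of these.
Igll1, chr16:16863986-16864235: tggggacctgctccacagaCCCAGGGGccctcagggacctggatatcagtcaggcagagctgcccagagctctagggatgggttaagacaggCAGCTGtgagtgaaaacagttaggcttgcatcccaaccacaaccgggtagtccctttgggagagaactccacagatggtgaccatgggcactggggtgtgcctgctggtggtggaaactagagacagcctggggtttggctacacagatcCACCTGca
Vpreb1, chr16:16869256-16869505: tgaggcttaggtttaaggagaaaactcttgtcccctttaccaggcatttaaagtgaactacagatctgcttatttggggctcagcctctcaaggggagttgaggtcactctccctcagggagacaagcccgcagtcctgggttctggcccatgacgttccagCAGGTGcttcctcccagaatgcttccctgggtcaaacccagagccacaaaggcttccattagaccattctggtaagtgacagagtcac
Vpreb2, chr16:17980315-17980427: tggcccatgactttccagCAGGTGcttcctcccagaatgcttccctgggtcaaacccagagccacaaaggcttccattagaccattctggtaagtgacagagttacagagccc

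The Igll1 run held 1 match to CCCNNGGG, 1 to CAGCTG and 1 to CACCTG, starting 231, 158 and 8 bases before the protein-coding transcript. The Vpreb1 and Vpreb2 runs each held 1 match to CACCTG, on the opposite strand as CAGGTG, starting 88 and 95 bases before it. Of 32851 promoter windows of 250 bases, 11.8% held CCCNNGGG, 13% CAGCTG and 17.2% CACCTG, and of windows of 113 bases 7.99% held CACCTG. A further motif, TGGGAA, known for IKZF1, had 0 matches in these runs and was present in 21.6% of windows of 250 bases and 9.76% of those of 113. Each match is a match of letters, and binding was not measured. The Vpreb1 and Vpreb2 runs aligned over 106 bases with 104 identical. Their transcripts aligned over 759 bases with 739 identical (97.4%), so reads could be split or lost between them by the counting, whose treatment of such reads the sources used here do not give. The level of Vpreb2 relative to Vpreb1 is therefore uncertain.

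Members were spread over all 8 replicates. The sham replicates held 143 and 187 members in batch 1 and 105 and 70 in batch 2, and the surgery replicates held 120 and 119 in batch 1 and 56 and 85 in batch 2. The summed members of a replicate gave between 279680 and 623035 UMIs. A member had a median of 2440 UMIs in batch 1 and 3363 in batch 2, 0.370 and 0.303 times the median of all kept cells. A barcode sequence occurred in both libraries 5 times, and 0 of these were members in both. Of barcodes past the gene rule, 57 carried several hashtags and 13 none, and these were left out. Doublets of cells with the same hashtag were not called.

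Of the label's 7 markers 3 are genes of the rule, so their detection follows from the choice: a UMI of Igll1 was found in 96.9% of members, of Vpreb1 in 99.0% and of Vpreb2 in 72.2%. Of the 4 markers outside the rule, Lef1, a transcription factor of early lymphocytes, was found in 95.9%, Arpp21 in 64.0%, Bfsp2 in 46.8% and Gfra2, a receptor for neurturin, in 41.2%. Ebf1 was found in 98.4%, Ighm in 96.3%, Dntt in 85.9%, Cd79a in 84.7% and Pax5 in 83.7%. Rag1 was found in 45.1%, the interleukin 7 receptor Il7r in 42.4% and Rag2 in 19.8%. In 1945 erythroid cells of the same libraries, which should lack these genes and had a median of 14658 UMIs, Igll1 was found in 2.42% and Vpreb1 in 5.14%. Cells that passed the rule for members, or the cuts for pre-B or naive-like B cells given below, had been removed from these erythroid cells. Their low shares are therefore partly fixed by that choice.

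Markers of other stages were low but present. Igkc, the kappa constant region, was found in 6.67% of members at 30.8 UMIs scaled to 1e6 per replicate or class (CPM), against 2.11% of the deeper erythroid cells. Il2ra, which marks later pre-B cells, had 4 UMIs in all members, the T cell gene Cd3e had 0 UMIs and Siglech, a plasmacytoid dendritic cell gene, was in 1 cell. Other genes of those cell types were present. A list of 10 T and NK markers summed to 138 CPM in sham and 132 in surgery on average. A list of 8 plasmacytoid markers, which includes the B-lineage factor Tcf4, summed to 855 and 783 CPM. Kit, the receptor used in the sort, was found in 17.9% of members at 62.4 CPM, below its 108 CPM over all kept cells. A protein gate and a transcript are different measures, and the surface level was not analysed here.

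The members were set beside 3 neighbouring classes. These were cut from counts in the same way: 1647 lymphoid-primed cells by Flt3 and Dntt, 1623 pre-B cells by Myl4, Fcrla and Cecr2, and 731 naive-like B cells by Ms4a1, Bank1, Ighd and Fcer2a. Because every class is a range cut from counts, the following levels are descriptions over 8 replicates without a test. The pre-B class was not pure. Its summed list of erythroid markers averaged 4265 CPM in sham and 2757 in surgery, against 248 and 283 in members. Nor was the naive-like B class pure. Its basophil and mast markers averaged 55.1 CPM in sham and 2614 in surgery, where the highest replicate had 10313. Neutrophil markers averaged 5896 CPM in sham and 4705 in surgery in naive-like B cells. They were at 5064 and 4839 in members and 4296 and 3626 in pre-B cells. A pre-B cell had a median of 4411 UMIs and a member 2726. The part of this admixture and depth in the levels below was not tested.

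Igll1 was at 2237 ± 191 CPM in members (SD, n = 8), 944 ± 71.6 in pre-B cells, 2.06 ± 0.777 in lymphoid-primed cells and 57.1 ± 89.3 in naive-like B cells. Vpreb1 was at 3683 ± 483 CPM in members and 1280 ± 177 in pre-B cells, and Vpreb2 at 490 ± 67.0 and 168 ± 35.6. All 3 were higher in members than in pre-B cells in 8 of 8 replicates, and only the members were chosen on them. Vpreb3, a partner of the nascent mu chain that the rule did not use, was at 1917 ± 207 CPM in members and 1119 ± 72.7 in pre-B cells, higher in 8 of 8 replicates.

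Several regulators and recombination genes outside the rule were also highest in the members among these classes. Of the list of 26 B-lineage transcription factors, the mean was highest in members for 9, in naive-like B cells for 12, in lymphoid-primed cells for 5 and in pre-B cells for 0. Ebf1 was at 7593 ± 1705 CPM in members, 4316 ± 775 in pre-B cells, 3055 ± 692 in naive-like B cells and 36.0 ± 16.5 in lymphoid-primed cells. Lef1 was at 1600 ± 412 CPM in members against 568 ± 134 in pre-B cells, and Erg, a factor upstream of Ebf1 and Pax5, at 465 ± 83.1 against 181 ± 35.0. Rag1 was at 207 ± 30.2 CPM in members and 84.2 ± 28.5 in pre-B cells, and Dntt at 974 ± 134 and 504 ± 80.9. Each of these 5 genes was higher in members than in pre-B cells in 8 of 8 replicates.

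Other genes ran the other way. Pax5 was at 644 ± 147 CPM in members and 1233 ± 248 in naive-like B cells, and Bach2, a repressor of plasma cell fate, at 1222 ± 243 in members against 1728 ± 375 in pre-B and 1851 ± 323 in naive-like B cells. Igkc was at 32.9 ± 14.6 CPM in members, 161 ± 34.3 in pre-B cells and 2525 ± 418 in naive-like B cells. The proliferation genes Mki67 and Top2a were at 295 ± 46.6 and 585 ± 116 CPM in members against 481 ± 65.6 and 953 ± 164 in pre-B cells, lower in members in 8 of 8 replicates. Il7r was at 183 ± 44.6 CPM in members and 217 ± 33.6 in pre-B cells, higher in members in 2 of 8 replicates. Flt3, a receptor of multipotent and lymphoid-primed progenitors, was at 12.5 ± 6.87 CPM in members and 444 ± 43.2 in lymphoid-primed cells, which were chosen for it. Ranges of Il7r, Ighd and Pax5 in members and pre-B cells overlap.

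**Figure D1:**
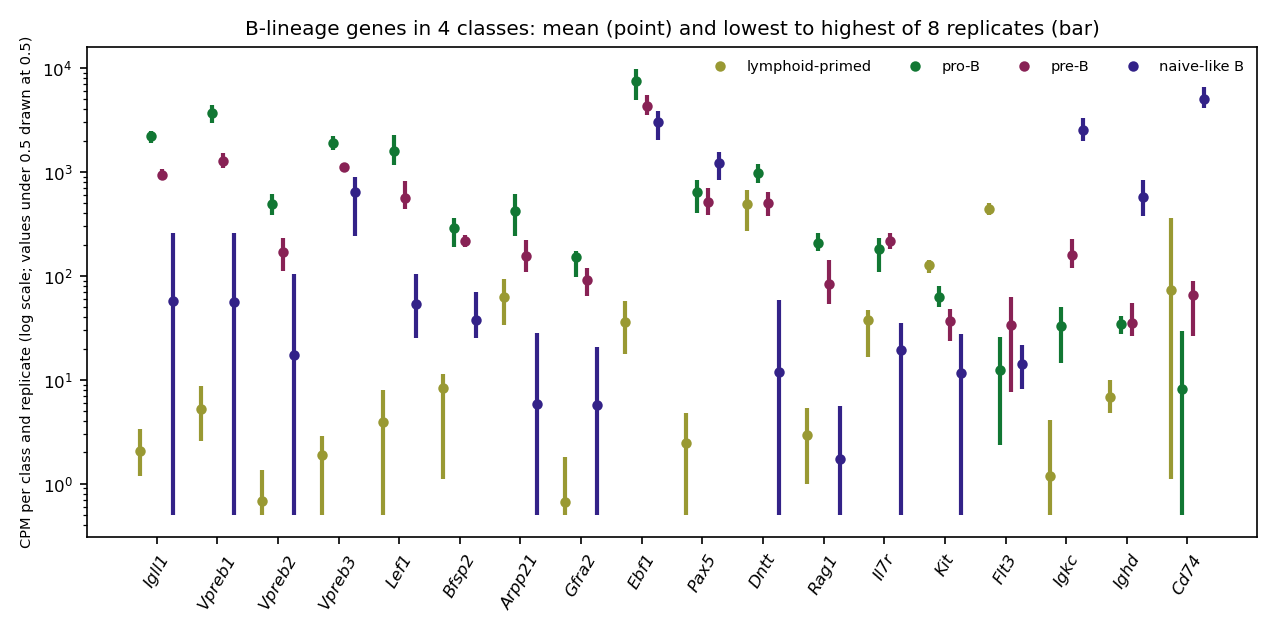
Level of B-lineage genes in CPM (log scale) in 4 classes, with the mean as a point and the lowest to highest of 8 hashtag replicates as a bar. Igll1 and Vpreb1 are highest in the members (pro-B, 2237 and 3683 on average), Igkc and Cd74 in naive-like B cells, and Flt3 in lymphoid-primed cells; genes of the cuts differ by construction.

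The lowest surrogate light chain counts drew in some cells of another kind. Among cells with 6 or more surrogate light chain UMIs (826 members), Ebf1 was at 8416 CPM and Elane, the elastase of neutrophil precursors, at 539 CPM. The 32 members with 3 UMIs had 1801 CPM of Ebf1 and 10066 CPM of Elane, and the 16 with 4 UMIs had 4272 and 7459. These levels are pooled over cells, so cells with many UMIs weigh most and the typical cell may differ. The median depth was 2914 gene UMIs in the former and 1721 in the latter. Of these 48 members, 34 were not among the 19 deep cells described below. Just outside the rule, 172 cells with 2 UMIs had 218 CPM of Ebf1 and 9481 CPM of Elane. At the upper limits the rule cut through cells alike in Ebf1. The 463 members with 1 UMI of Myl4, Fcrla and Cecr2 had 7792 CPM of Ebf1, and the 331 cells with 2 UMIs, just outside, had 7865. The 56 members with 2 UMIs of Ms4a1, Bank1, Ighd and Fcer2a had 9323 CPM, and the 10 cells with 3 had 8861.

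In 19 members a list of markers of another lineage made up over 0.5% of UMIs, and these 19 had a median of 21298 UMIs against 2695 in the other 866. They held 14 of the 48 members with 3 or 4 surrogate light chain UMIs and 88.1% of all member UMIs of Elane. Their Elane level was 11331 CPM and their Ebf1 level 219 CPM, so their profile goes against the label. Elane is on the neutrophil list, one of those used to pick these cells, so its high level there partly follows from the choice. Ebf1 is on none of the lists used to pick them. Without these 19 cells Elane was at 224 CPM in members, against 1643 CPM with them. Sham replicates held 1, 2, 3 and 3 of the 19 and surgery replicates 1, 1, 3 and 5. The called genes below are given with and without these 19 cells, a choice made after their values were seen. Other results are over all members unless the text says that the 19 cells were left out.

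**Figure D2:**
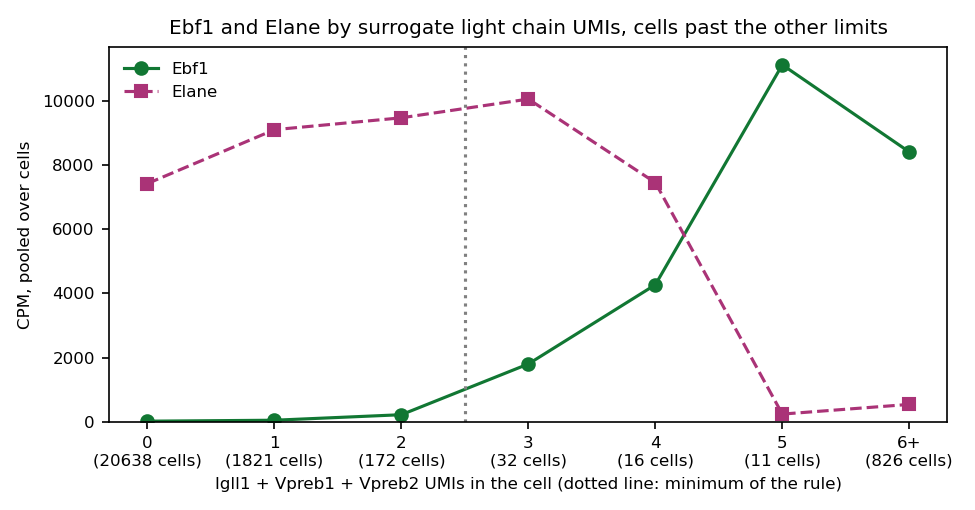
CPM of Ebf1 and Elane, pooled over cells, by the number of Igll1, Vpreb1 and Vpreb2 UMIs in the cell; the dotted line is the minimum of the rule. Elane is at 10066 in cells with 3 such UMIs and at 237 in the 11 cells with 5, where Ebf1 is at 1801 and 11134.

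The share of members among kept cells did not differ beyond the spread between replicates. In sham replicates members made up 5.96% and 3.18% of kept cells in batch 1 and 2.87% and 2.19% in batch 2. In surgery replicates they made up 4.06% and 3.46% in batch 1 and 2.97% and 2.41% in batch 2. The groups overlap, and sham replicate 1 of batch 1 is the highest. The means were 3.55 ± 1.66% in sham and 3.23 ± 0.704% in surgery (SD, n = 4 each), a difference of -0.324 percentage points (p = 0.857, two-sided exact permutation test over 70 assignments, whose smallest p is 0.0286). The difference was -0.807 points in batch 1 and 0.159 points in batch 2, and 0.480 points without sham replicate 1 of batch 1. A share of a sorted population follows the gate as well as the marrow.

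Naive-like B cells made up 3.37 ± 0.256% of kept cells in sham and 1.84 ± 0.802% after surgery, without overlap (exact permutation p = 0.0286, adjusted over 4 classes 0.114). Permuted within batches, over 36 assignments, the exact p was 0.0556. Among the cells of the 3 B classes together, members made up 27.1 ± 8.88% (sham) and 28.7 ± 6.88% (surgery), with an exact permutation p of 0.857.

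**Figure D3:**
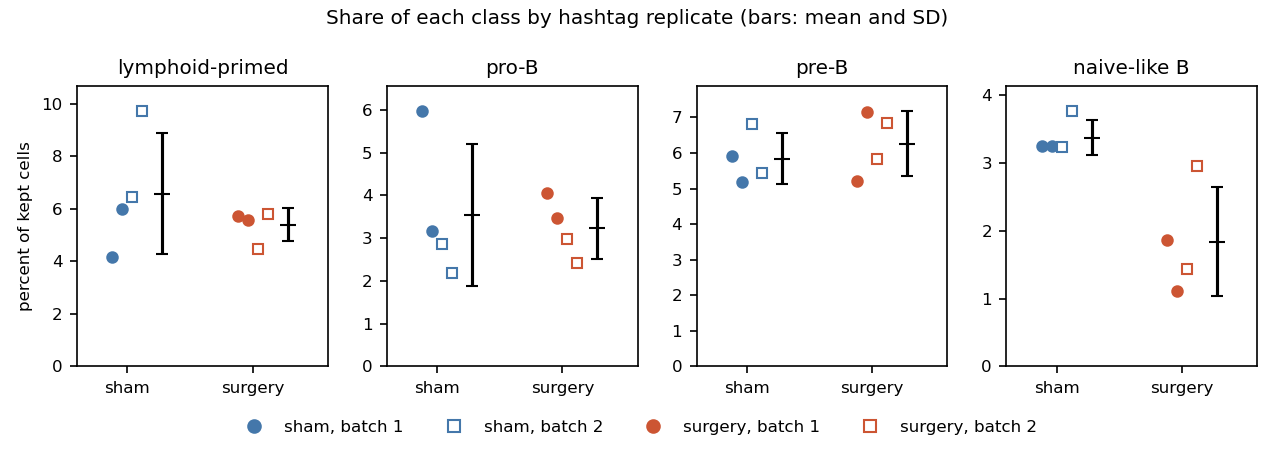
Percent of kept cells in each class by hashtag replicate, with mean and SD of 4 replicates as bars. Members (pro-B) run from 2.19 to 5.96 in sham and 2.41 to 4.06 in surgery, and the groups of naive-like B cells do not overlap.

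Few genes differed between surgery and sham within the members. UMIs were summed per replicate and compared by edgeR's quasi-likelihood test with batch as a term, and a gene is called where its Benjamini-Hochberg adjusted p is under 0.05. A fold change is the log2 ratio of the surgery to the sham group ± SE. The SE was worked back from the fold change and the F statistic of the test, so it is not separate from the p-value. Of 6779 genes tested, 7 were higher after surgery (0.103%) and 3 lower (0.0443%). At an unadjusted p under 0.05 there were 340 genes (5.02%), and the CPM of the groups did not overlap for 150 (2.21%). DESeq2 called 3 of the 10 and no other gene.

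The genes called by both tools were Myl10, N4bp2 and Arntl, all higher after surgery. Myl10 (chr5:136693146-136701094, plus strand) encodes a myosin light chain. Its sham values were 349 and 255 CPM in batch 1 and 222 and 164 in batch 2, and its surgery values 532 and 425 in batch 1 and 458 and 307 in batch 2. Within each batch both surgery replicates exceeded both sham replicates, although the groups overlap across batches. The log2 fold change was 0.81 ± 0.14 (edgeR adjusted p = 0.0102). After thinning every cell to 2000 UMIs, 48.7 ± 11.3% of surgery members had a Myl10 UMI against 27.8 ± 7.61% of sham members (SD, n = 4 each).

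N4bp2 (chr5:65763521-65830108, plus strand) encodes a protein that binds the ubiquitin ligase NEDD4 and has a nuclease-like domain. It was at 281 and 175 CPM in the sham replicates of batch 1 and 161 and 131 in those of batch 2. In surgery it was at 368 and 364 CPM in batch 1 and 372 and 243 in batch 2. The lowest surgery replicate lay below the highest sham replicate, which was of the other batch. The log2 fold change was 0.86 ± 0.15 (edgeR adjusted p = 0.0102), and 47.6 ± 2.54% of thinned surgery members had a UMI against 31.0 ± 4.62% of sham members.

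Arntl (chr7:113207465-113314126, plus strand) encodes BMAL1, a core factor of the circadian clock. It was at 283 and 177 CPM in the sham replicates of batch 1 and 163 and 190 in those of batch 2, and at 463, 435, 272 and 231 CPM in the surgery replicates in the same order. Batch 1 carried the larger difference, with log2 fold changes of 0.997 in batch 1 and 0.54 in batch 2. Over both batches it was 0.79 ± 0.14 (edgeR adjusted p = 0.0110). A UMI was found in 50.9 ± 5.15% of thinned surgery members and 31.3 ± 9.11% of sham members.

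These 3 transcripts came from many cells. Myl10 had 1160 UMIs in 404 members, N4bp2 888 UMIs in 485 and Arntl 947 UMIs in 461, and the 10 members with most UMIs held 11%, 7.55% and 8.76% of them. Without the 19 cells rich in other-lineage UMIs, the log2 fold changes were 0.87 ± 0.13, 0.93 ± 0.14 and 0.82 ± 0.14 (edgeR adjusted p = 0.000182, 0.000182 and 0.00173). There the sham values of Myl10 ended at 368 CPM and its surgery values began at 431, and for N4bp2 these were 296 and 340, so that neither gene's groups overlapped. For Arntl they were 300.3 and 296, an overlap of 1 surgery replicate with 1 sham replicate.

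The calls for these 3 genes depended on single replicates and on the batch term, with the same direction throughout. Without sham replicate 2 of batch 1 the edgeR adjusted p was 0.0969 for Myl10, 0.0984 for N4bp2 and 0.154 for Arntl, and without surgery replicate 1 of batch 1 it was 0.150, 0.101 and 0.180. Without sham replicate 2 of batch 2 it was 0.0888 for both Myl10 and N4bp2, without surgery replicate 1 of batch 2 0.0501 for both, and for Arntl 0.0749 without surgery replicate 2 of batch 1. With no batch term it was 0.480, 0.361 and 0.529. Over all alternatives run, the lowest log2 fold change was 0.54, for Arntl in batch 2 alone. The highest was 1.26, for Myl10 without members of 3 or more other-lineage UMIs. Genes next to them were not called. On either side of Myl10 Cux1 and Ift22 had log2 fold changes of 0.01 and 0.06, and N4bp2 lies between Pds5a (0.10) and Rhoh (-0.36).

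The remaining genes called higher were low or concentrated. Map3k13, a kinase of the JNK pathway, was at 29.5, 20.9, 7.94 and 8.04 CPM in sham and 61.8, 48.0, 60.8 and 31.9 in surgery, without overlap (1.58 ± 0.32, edgeR adjusted p = 0.0397). Ptpn14, a tyrosine phosphatase known as a brake on YAP, was at 36.3, 8.03, 1.99 and 0 CPM in sham and 78.4, 37.9, 50.1 and 35.8 in surgery (2.20 ± 0.45, edgeR adjusted p = 0.0398). Cnpy4, with 60 UMIs in all, was at 7.63 ± 2.25 CPM in sham and 27.8 ± 2.03 in surgery, without overlap (1.84 ± 0.39, edgeR adjusted p = 0.0467). Map3k13 and Ptpn14 were also called without the 19 cells (1.69 ± 0.33 and 2.20 ± 0.41, edgeR adjusted p = 0.00890 and 0.00536), where Cnpy4 was too low to be tested. Leaving out single replicates ended the call in 6 of 8 fits for Map3k13 (highest edgeR adjusted p = 0.222), in 6 of 8 for Ptpn14 (0.417) and in 8 of 8 for Cnpy4 (0.241). The Ptpn14 log2 fold change was 3.53 without sham replicate 1 of batch 1, and that of Map3k13 was 0.93 after thinning (edgeR adjusted p = 0.758). Cnpy4, at a mean of 17.7 CPM, is below the level set for naming and is named because it was called. DESeq2 gave adjusted p of 0.253 for Map3k13, 0.808 for Ptpn14 and 0.747 for Cnpy4.

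Slpi and the 3 genes called lower, S100a8, S100a9 and Wfdc21, had most of their UMIs in the 19 cells. S100a8 and S100a9 are on the neutrophil list used to pick these cells. Their share in the 19 cells and their values without them therefore partly follow from that choice. Slpi and Wfdc21 are on none of the lists used. S100a8 and S100a9, which form calprotectin in neutrophils, fell by 2.60 ± 0.37 and 2.89 ± 0.52 on the log2 scale (edgeR adjusted p = 0.00125 and 0.0102). S100a8 was at 72.5 and 766 CPM in the sham replicates of batch 1 and 1034 and 949 in those of batch 2, and at 83.1, 68.3, 75.1 and 207 CPM in surgery. The 10 members with most S100a8 held 84.9% of its UMIs, and the 19 cells held 85.2% of those of S100a8, 84.0% of S100a9, 86.9% of Wfdc21 and 88.4% of Slpi. Without them S100a8 was at 76.9 ± 22.0 CPM in sham and 79.2 ± 9.78 in surgery, with a log2 fold change of 0.11 ± 0.21 (edgeR adjusted p = 0.995), and S100a9 had 0.26 ± 0.34 (0.995).

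Wfdc21 fell by 1.84 ± 0.38 on the log2 scale (edgeR adjusted p = 0.0398) with 168 UMIs in 32 members, and Slpi, a secreted protease inhibitor, was higher by 2.41 ± 0.43 (0.0102) with 303 UMIs in 52 members. Slpi was at 393 CPM in surgery replicate 1 of batch 2 and at 21.4, 159 and 129 CPM in the other surgery replicates, against 17.7 to 49.9 CPM in sham. Without the 19 cells Slpi was at 10.03 ± 5.15 and 13.1 ± 6.44 CPM in sham and surgery and both genes were too low to be tested. The summed neutrophil list was between 1997 and 7302 CPM in the sham sums of members and between 1800 and 12213 CPM in the surgery sums, with 10 of 10 genes detected.

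**Figure D4:**
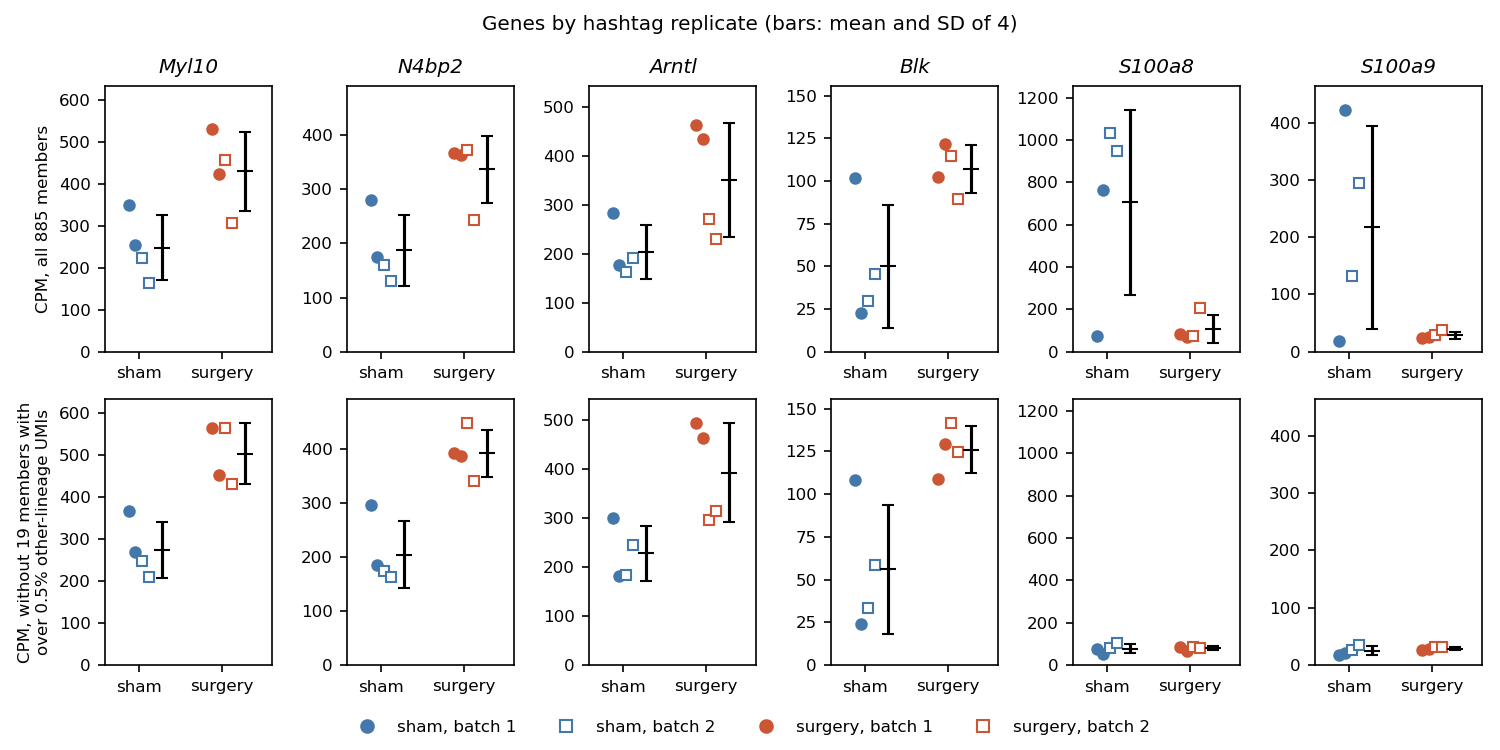
CPM of 6 genes by hashtag replicate in all 885 members (top) and in the 866 left without 19 cells rich in other-lineage UMIs (bottom), with mean and SD of 4 replicates. Myl10, N4bp2 and Arntl keep their difference, and S100a8 falls to 76.9 in sham and 79.2 in surgery on average.

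Without the 19 cells 13 of 6440 genes were called, all higher after surgery, and 5 of them were among the 10 above. The other 8 were Eng, Dock9, Blk, Pcdh9, Auts2, Arl5c, Xrcc1 and Tspan13. Blk, a Src-family kinase downstream of the pre-B cell receptor, was there at 108, 23.9, 33.4 and 58.6 CPM in sham and 109, 129, 141 and 125 in surgery (1.23 ± 0.25, edgeR adjusted p = 0.0137), whereas over all members its adjusted p was 0.146. Eng, the TGF-beta coreceptor endoglin, was at 67.2 ± 42.1 CPM in sham and 140 ± 10.9 in surgery (1.098 ± 0.220, edgeR adjusted p = 0.0106). Xrcc1, a scaffold of DNA strand break repair, was at 63.3 ± 19.4 and 121 ± 18.4 CPM (0.91 ± 0.20, 0.0280), without overlap. Tspan13, an abundant tetraspanin, was at 1115 ± 267 and 1487 ± 120 CPM (0.42 ± 0.10, 0.0331). These 8 genes are named because this setting, added after the data were seen, called them, and over all 885 members their edgeR adjusted p lay between 0.0627 and 0.306. With members held to at least 5 surrogate light chain UMIs, Eng, Xrcc1, Dock9, Blk, Arl5c and Tspan13 were called too (edgeR adjusted p between 0.00674 and 0.0465).

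The genes of the pre-B cell receptor and its signalling showed no call. Of 15 tested, 5 had higher and 10 lower estimates after surgery, with a median log2 fold change of -0.11 against 0.0057 over all 6779 genes, and 1 of 15 (Blk) had an unadjusted p under 0.05. Ighm was at 1480 ± 246 CPM in sham and 1375 ± 135 in surgery, Cd79a at 868 ± 99.4 and 771 ± 48.9, Vpreb3 at 1877 ± 206 and 1956 ± 230, and Blnk, the adaptor of the receptor, at 851 ± 150 and 780 ± 153. Of the label's markers outside the rule, Bfsp2 was at 320.5 ± 55.2 and 252 ± 54.9 CPM (-0.35 ± 0.13, edgeR adjusted p = 0.839) and Arpp21 at 365 ± 96.8 and 471 ± 140 CPM (0.35 ± 0.15, 0.972).

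Of 23 B-lineage transcription factors, 0 were called, 9 had higher and 14 lower estimates, and the median log2 fold change was -0.02. Ebf1 was at 8013 ± 1727 CPM in sham and 7173 ± 1824 in surgery (-0.15 ± 0.07, edgeR adjusted p = 0.975) and Pax5 at 696 and 592 CPM (-0.24 ± 0.11, 0.975). The largest estimate among those with an unadjusted p under 0.05 (4 of 23, 17.4%, against 5.02% of all genes tested) was that of Irf8, 0.51 ± 0.19, and Bcl11a had -0.50 ± 0.14 (edgeR adjusted p = 0.745 and 0.274). Of 16 genes of V(D)J recombination and end joining 0 were called, with 7 higher and 9 lower estimates and a median of -0.05. Dntt was at 955 ± 109 and 993 ± 171 CPM.

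The list of interleukin 7, Flt3, Kit and niche receptors had lower estimates for 15 of 21 genes tested, with 0 called and a median of -0.13. It also holds signalling and survival genes such as Stat5a, Cish and Mcl1, so the count is not one of receptors alone. Il7r was at 213 CPM on average in sham and 152 in surgery (-0.49 ± 0.14, edgeR adjusted p = 0.306), and Ly6d, an early B-lineage surface protein, at 70.5 and 28.9 CPM without overlap (-1.16 ± 0.29, 0.170). In cells thinned to 2000 UMIs, an Il7r UMI was found in 44.2, 33.9, 31.2 and 36.5% of sham members and 25.0, 32.6, 29.4 and 18.9% of surgery members. The means were 36.4 ± 5.62% and 26.5 ± 5.92% (exact permutation p = 0.0571, adjusted over the features compared 0.419), and the difference was -10.2 points in batch 1 and -9.68 in batch 2. At 1000 UMIs these were -2.85 and -8.82 points (exact permutation p = 0.0857). Without thinning they were -3.27 and -14.2 points, and the groups did not overlap (exact permutation p = 0.0286, adjusted 0.314). The thinned comparison used 378 sham and 302 surgery cells, and left out 205 members of under 2000 UMIs.

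Cell cycle and metabolic lists also had 0 called genes. Of 22 S phase genes 7 had higher and 15 lower estimates (median -0.06), and of 24 G2 and M phase genes 18 had higher and 6 lower estimates (median 0.11). The share of thinned members with at least 3 S phase genes detected was 38.5 ± 8.25% in sham and 38.6 ± 4.43% in surgery, and that for G2 and M genes 31.3 ± 6.56% and 29.4 ± 4.64% (exact permutation p = 0.971 and 0.714). Of 22 nuclear genes of oxidative phosphorylation 17 had higher estimates (median 0.15), of 16 glycolysis and hypoxia genes 12 had (median 0.09), and of 16 MYC target and ribosome biogenesis genes 10 had lower ones (median -0.12). An unadjusted edgeR p under 0.05 was found for 4 of the 16 MYC list genes (25%), 3 of 22 S phase genes (13.6%) and 0 of 24 G2 and M genes. For the oxidative phosphorylation and glycolysis lists these were 1 of 22 (4.55%) and 1 of 16 (6.25%), against 5.02% of all genes. Over all 6779 genes 3464 estimates were higher and 3315 lower. Of 11 type I interferon response genes 10 had lower estimates. Isg15, an interferon-induced ubiquitin-like protein, was at 45.3, 53.0, 45.7 and 61.7 CPM in sham and 19, 17.7, 14.3 and 33.8 in surgery, without overlap, but was not called (-1.17 ± 0.29, edgeR adjusted p = 0.147). It had 135 UMIs in 74 members, and the 10 members with most held 46.7% of them. Maf, a transcription factor, was at 102 ± 12.6 and 58.9 ± 18.2 CPM, also without overlap and not called (-0.76 ± 0.19, 0.163). Lists of light chain and later B stage genes, MHC class I processing, TNF and NF-kB targets, immediate early and stress genes, the unfolded protein response and apoptosis also had 0 calls, of 5, 11, 8, 21, 15 and 13 genes tested. At an unadjusted edgeR p under 0.05 these lists held 2, 0, 0, 3, 0 and 0 genes. Of 19 genes tested that had been seen to differ after surgery in other progenitor classes of these same replicates, 1 was called, Myl10, and this list is not independent evidence.

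Lists of other cell types were mostly too low to be tested. Of 7 neutrophil genes tested 2 were called, S100a8 and S100a9, described above, and of 5 monocyte genes 0. In the members Ppbp, of megakaryocytes, and Cd3e, Cd3g, Il2rb and Ncr1, of T and NK cells, were at 0 UMIs. The lists were not absent, with 5 of 7 megakaryocyte genes and 6 of 10 T and NK genes detected. The summed T and NK list was between 68.0 and 206 CPM in sham and between 39.3 and 352 in surgery. The summed monocyte list was between 332 and 665 CPM in sham and between 264 and 1559 in surgery, and the erythroid list between 223 and 282 in sham and 183 and 504 in surgery. The summed list of stem and early progenitor markers, of which 9 of 10 were detected and Procr was at 0, was between 171 and 188 CPM in sham and between 107 and 142 in surgery, without overlap. Of its 3 genes tested all 3 had lower estimates (median -0.56) and 0 were called. The part of these lists in the results was not tested beyond the fits under other cuts of members. One of these left out members with 3 or more other-lineage UMIs, which kept 421 members. There 6 of 3138 genes were called, with Myl10, N4bp2 and Arntl among them (edgeR adjusted p = 6.34e-05, 0.0182 and 0.00723).

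Whether the surgery difference was particular to the members was tested by an interaction between class and surgery with the replicate as a block. Of 8713 genes compared between members and pre-B cells 0 were called (0%), of 9235 compared with lymphoid-primed cells 0 (0%), and of 7298 compared with naive-like B cells 0 (0%). At an unadjusted p under 0.05 edgeR gave 397, 377 and 248 genes. Myl10 had a log2 fold change of 1.34 in pre-B cells and 1.67 in lymphoid-primed cells, and its estimate in members was lower than these by 0.48 ± 0.22 and 0.85 ± 0.19 (edgeR adjusted p of the latter difference 0.299). N4bp2 had 0.60 in pre-B cells and -0.20 in lymphoid-primed cells, differences of 0.29 ± 0.18 and 1.11 ± 0.24 (the latter 0.299). Arntl had 0.47 in pre-B and 0.34 in lymphoid-primed cells. In naive-like B cells N4bp2 had 0.02 ± 0.20 and Arntl -0.76 ± 0.34, so that the estimates in members were higher by 0.84 ± 0.28 and 1.47 ± 0.39 (edgeR adjusted p = 1 and 0.755).

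The members themselves were not uniform, and Dntt divided them. After thinning to 2000 UMIs and without the 19 cells rich in other-lineage UMIs, 527 members had a Dntt UMI and 134 had none, with as few as 7 of the latter in a replicate. A cell may lack a UMI by sampling, so the split is one of detection. The members were chosen on surrogate light chain UMIs, and both sides passed that rule. Levels are over 8 replicates and are descriptions, since the cells of both sides come from the same replicates.

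Members with Dntt had more surrogate light chain and recombinase. Igll1 was at 3129 ± 208 CPM with Dntt and 2109 ± 392 without (SD, n = 8), and Vpreb1 at 5311 ± 462 and 3045 ± 862. Rag1 was at 342 ± 82.3 and 147 ± 87.3 CPM, Rag2 at 90.0 ± 29.5 and 35.4 ± 47.4, and Erg at 700 ± 95.9 and 294 ± 156. Lef1, Ebf1, Foxo1, Tcf3 and Arpp21 were also higher with Dntt, each, like the 5 genes above, in 8 of 8 replicates. Of the list of B-lineage transcription factors, 8 of 24 at 20 CPM or more were higher with Dntt in at least 7 replicates and 0 lower, against 9.91% higher and 5.54% lower of 7203 genes.

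Members without Dntt had more of the division and growth genes. Mki67 was at 188 ± 48.0 CPM with Dntt and 481 ± 280 without, Top2a at 366 ± 120 and 700 ± 177, and Birc5 at 119 ± 44.6 and 317 ± 175. Myc was at 56.0 ± 34.7 and 194 ± 73.2 CPM, Ncl, nucleolin, at 526 ± 113 and 980 ± 297, and Fbl, fibrillarin, at 133 ± 33.9 and 309 ± 42.0. Each of these was higher without Dntt in 8 of 8 replicates. Of 16 MYC target and ribosome biogenesis genes, 9 were higher without Dntt in at least 7 replicates and 0 with it, and of 24 G2 and M genes these were 7 and 0. At least 3 G2 and M genes were detected in 24.1 ± 6.70% of members with Dntt and 54.4 ± 22.0% of those without, and at least 3 S phase genes in 32.3 ± 5.83% and 58.6 ± 17.6%.

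**Figure D5:**
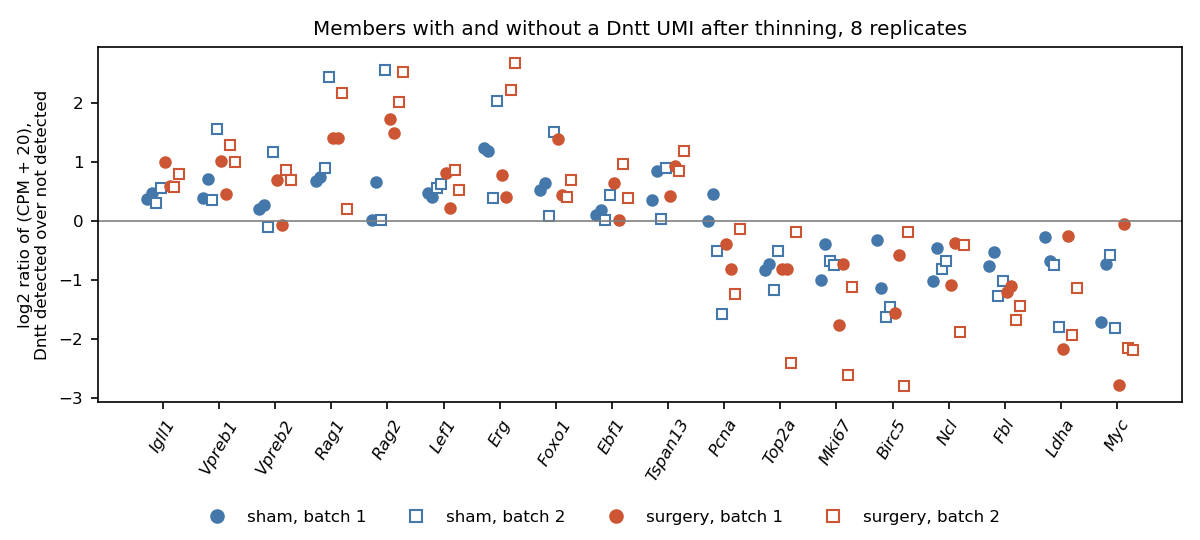
Log2 ratio of CPM with 20 added, members with a Dntt UMI over members without one after thinning to 2000 UMIs, for 18 genes and 8 replicates. Surrogate light chain, recombinase and B-lineage factor genes lie mostly above 0 and division and growth genes mostly below.

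The share of thinned members with Dntt was 75.8 ± 4.46% of sham and 80.9 ± 2.98% of surgery members (p = 0.114 by the exact permutation test, 0.419 after adjustment). It was higher in surgery by 9.57 points in batch 1 and 0.737 points in batch 2, and without thinning the difference was -0.454 points. Heavy chain variable gene transcripts were sparse, with 94 UMIs in 76 members over 33 of 183 such genes, and the leading gene, Ighv14-2 (chr12:113994469-113994898), had 23 UMIs in 22 members.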

How the data were processed

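The deposited files are 2 sparse matrices of raw UMI counts, in which hashtags have lines of their own. Cell Ranger and GRCm38 are named in the submitters' processing notes. A version, the use of strand and the handling of reads that match several genes are not given in the sources used here. Hashtag lines (22.2% and 16.1% of counts) were kept out of gene totals. Exactly 1 hashtag was found on 86.0% and 90.4% of barcodes past the quality minimums, which left 14678 and 12265 cells. Member counts were summed per replicate and tested with edgeR 4.0.16 (R 4.3.3; filterByExpr, TMM, batch and group as terms, Benjamini-Hochberg adjustment, the 10 genes of the rule removed), and with DESeq2 1.42.0 as an alternative. The edgeR procedure was tested on simulated data. Shares were compared by exact permutation tests over replicates. CPM are per total UMIs of a replicate and class, without TMM factors. Cells were thinned to 2000 UMIs for shares of cells with a transcript. The members and gene lists were chosen with earlier results of these data known. Genes named are those called with a mean of at least 20 CPM and one direction in both batches, the lowest p values where fewer than 5 were called in a direction, all called members of the lists, the label's markers, the genes of the rule and abundant list members; others named are said to be outside this. Some listed genes are not reported here. Alternatives were another scaling, tool, filter, batch term and block, stricter rules for members, thinning, single batches and leaving out each replicate.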

Additional observations from a re-analysis of the deposited data

Results flagged for a closer look

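Of 56 groups of 4 replicates examined, 5 had 1 replicate far from the other 3 by Dixon's criterion, which chance alone flags in about 1 in 20 groups. The N4bp2 level in surgery was lowest in surgery replicate 2 of batch 2, at 243 CPM. The same replicate was the highest of the surgery replicates for S100a8, at 207 CPM, and for Wfdc21, at 45.8 CPM, and it held 5 of the 19 members rich in other-lineage UMIs. At 2000 UMIs it held the only members with an Il2ra UMI, 1.35% of them, whereas at 1000 UMIs surgery replicate 1 of batch 2 had 1.79% and this replicate 1.18%. The share of naive-like B cells in sham was highest in sham replicate 2 of batch 2, at 3.75% of kept cells.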

How the results depend on the processing

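Over all 885 members 7 genes were called higher and 3 lower, and these counts moved with most settings. The count of genes higher was 3 with DESeq2, 11 with at least 5 surrogate light chain UMIs, 0 in batch 1 alone, 0 with no batch term, 29 with no low-count filter and 13 without members of over 0.5% other-lineage UMIs. The count of genes lower was 0 with DESeq2, 6 with at least 5 surrogate light chain UMIs, 0 in batch 1 alone, 0 with cells thinned before the rule, 0 with no batch term, 12 with no filter, 0 without members of 3 or more other-lineage UMIs and 0 without those of over 0.5%. Leaving out each replicate gave 0 to 23 genes higher and 1 to 7 lower; 0 higher and 1 lower came without sham replicate 2 of batch 1 and 23 higher without sham replicate 1 of batch 1. With the replicate number as a block 15 genes were higher and 6 lower. Deviations of same-numbered replicates from the fit of batch and group were not positively correlated (-0.288, -0.264, -0.162 and -0.137). That fit itself makes such correlations negative, so these values do not settle whether the numbers pair replicates. With no filter, 17, 24 and 9 genes were called for the difference from pre-B, lymphoid-primed and naive-like B cells, and leaving out each replicate gave 0 to 6, 0 to 11 and 0 to 6. The difference in the share of members was between -0.778 and 0.480 points over the replicates left out. Without members of over 0.5% other-lineage UMIs the log2 fold changes of S100a8 and S100a9, genes on a list used for that cut, were 0.11 and 0.26.

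Differences in shares of members changed sign in several settings. Without thinning they were -0.454 points for Dntt, -0.177 for Rag1 and 3.21 for G2 and M genes, and at 1000 UMIs -2.01 for S phase genes. Leaving out each replicate gave -2.51 to 0.504 points for Kit, -0.618 to 4.59 for Rag1, 0 to 0.450 for Il2ra, -2.52 to 3.57 for S phase genes and -4.03 to 1.12 for G2 and M genes, and -126 to 234 UMIs for the median UMIs of a member. The depth of members, a median of 2440 and 3363 UMIs, limits what can be seen of sparse genes.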

Other observations

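Other genes of the circadian clock were looked up after the value of Arntl had been seen. Besides Arntl, 1 of them had enough UMIs in the members to be tested. Clock, the partner of BMAL1, was at 119 ± 16.9 CPM in sham and 118 ± 9.55 in surgery (SD, n = 4 each), with a log2 fold change of 0.01 ± 0.16 (edgeR adjusted p = 0.999). Nr1d1, a repressor of Arntl, was at 8.63 ± 2.63 and 26.3 ± 18.9 CPM on 54 UMIs, and Cry1 at 24.8 ± 4.37 and 26.0 ± 15.0 CPM on 93 UMIs, neither tested. The hour at which marrow was taken is not in the labels used here.

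With members held to at least 5 surrogate light chain UMIs (837 cells), Elane, Prtn3 and Ctsg, granule proteases of neutrophil precursors, were called lower after surgery, with log2 fold changes of -1.89 ± 0.30, -2.11 ± 0.35 and -1.56 ± 0.30 (edgeR adjusted p = 0.00116, 0.00198 and 0.0128). Over all members their log2 fold changes were -0.06, 0.14 and 0.33, and without the 19 cells rich in other-lineage UMIs -0.09, -0.16 and -0.02, none of them called. All of these proteases are on the neutrophil list used to pick the 19 cells, so the values without those cells partly follow from that choice.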
